A study of Mus musculus with 9 samples.

Results

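Prr33 and 4 genes beside it on mouse chromosome 7 were followed in ear dermis under imiquimod and under a herbal decoction, Xiao-Yin-Fang (XYF). The 5 genes were Prr33, Lsp1, Tnnt3, Tnni2 and Mrpl23, taken by symbol from a count table of 52550 genes. Prr33 was picked because its counts were high in the IMQ+XYF libraries, and the others because they overlap it or lie next to it. All 5 passed the filter on low counts, which kept 22430 genes. The question was whether the level of Prr33 moved with Tnnt3, a muscle gene, or with Lsp1, a leukocyte gene.

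Fast skeletal muscle fibres contract when calcium binds the troponin complex on the thin filament. Tnnt3 encodes the fast skeletal troponin T, which ties that complex to tropomyosin, and Tnni2 the fast skeletal troponin I, its inhibitory subunit. Lsp1 encodes an F-actin-binding protein of leukocytes, also found in endothelium, that is known for its part in leukocyte migration. Mrpl23 encodes a protein of the large subunit of the mitochondrial ribosome. Prr33 is named proline rich 33, although the GENCODE release used here lists it as a long non-coding RNA. The mouse ear holds thin muscles beside its skin, so dermal preparations can contain muscle RNA.

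The libraries came from the ear dermis of wild-type mice aged 8 weeks, given as C57BL/6 in the labels and as C57BL/6J in the study's methods, with 3 libraries in each of 3 groups. VAS+H2O mice had vaseline on the ear for 5 days and 200 µl of water by gavage for 10 days. IMQ+H2O mice had imiquimod cream, a Toll-like receptor 7 agonist that gives psoriasis-like inflammation, and the same water. IMQ+XYF mice had imiquimod cream and XYF by gavage at 23.3 mg/g, on the same schedule. The study's methods describe RNA from ear sheets of more than 1 mouse, and the labels do not say that replicates were separate animals, so p-values measure only the spread between these libraries. Total counts ran from 28756305 to 79836881 per library, and 3 counts corresponded to between 0.0373 and 0.103 CPM (counts scaled to library size). Fibroblast markers of the labelled dermis were abundant, with Dcn, a collagen-binding proteoglycan, between 4547 and 6282 CPM. Markers of muscle, leukocytes, endothelium and keratinocytes were also detected in every library.

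The gene models placed the exons of Prr33 in the introns of its neighbours. On GRCm38 (GENCODE vM21), Prr33 (ENSMUSG00000043795) spans chr7:142491074-142506771 on the minus strand, with 2348 exon bases in 2 transcripts. Lsp1 (ENSMUSG00000018819) lies on the plus strand at chr7:142460809-142494867 and its span shares 3794 bases with that of Prr33. Tnnt3 (ENSMUSG00000061723) lies on the plus strand at chr7:142498836-142516009 and shares 7936 bases. Neither gene shares an exon base with Prr33. The nearest exon of Lsp1 is 409 bases from a Prr33 exon, and the nearest of Tnnt3 is 907 bases away. Of the exon bases of Prr33, 81.6% lie in 1 intron of Lsp1, 14.3% in an intron of Tnnt3 and 4.13% in neither gene. Tnni2 (ENSMUSG00000031097, chr7:142441808-142444410, plus strand) lies 46664 bases from Prr33, and Mrpl23 (ENSMUSG00000037772, chr7:142532686-142540747, plus strand) 25915 bases.

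**Figure D1:**
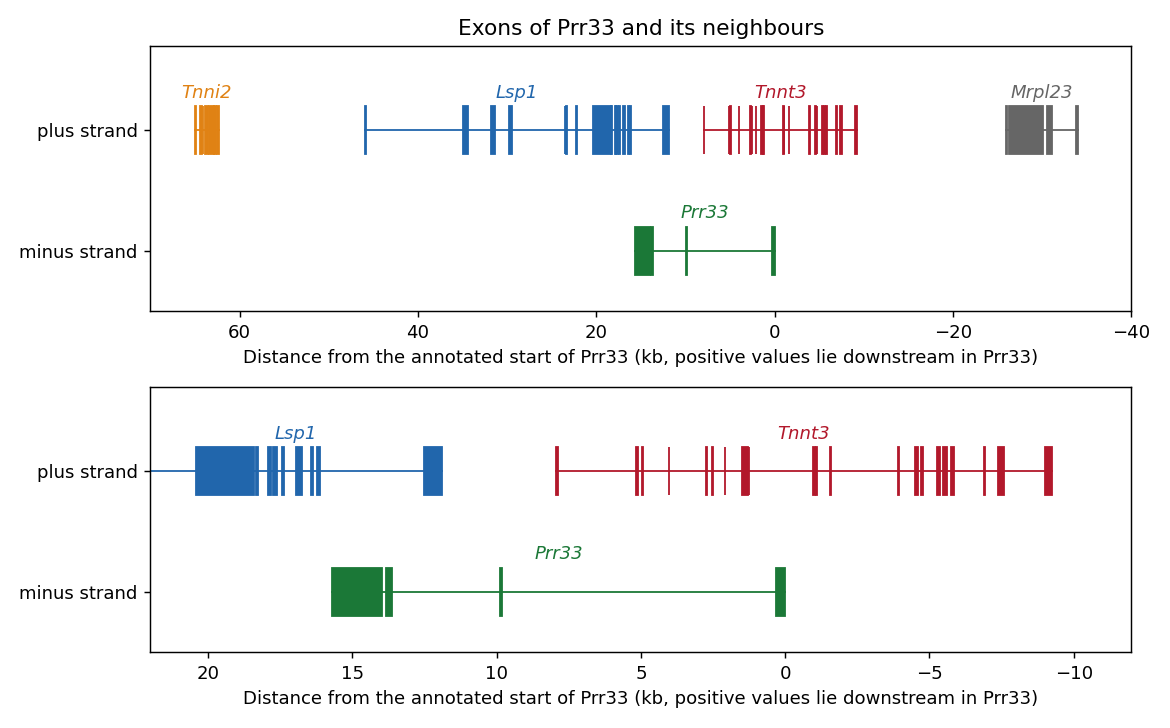
Exons (boxes) and spans (lines) of the 5 genes by strand, against the distance in kb from the annotated start of Prr33, with the whole locus above and the region around Prr33 below. Prr33 is the only one of the 5 on the minus strand, and its boxes fall in gaps between the boxes of Lsp1 and Tnnt3.

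Most exon bases of Prr33 are therefore bases that unspliced Lsp1 RNA also covers, on the other strand. Where on these exons the counted reads lay was not measured. The labels call the libraries strand-specific, while the kit named in the study's methods does not mark strand, and the use of strand in counting was not stated. Without strand, reads from Prr33 and from the introns of its neighbours cannot be told apart.

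The following sequences show windows around RefSeq transcript starts, and bases of Prr33 that lie inside and outside its neighbours. The promoters run from 250 bases before to 50 after the start and are RefSeq sequences (GRCm38.p6). The table used here matched 2 of the 5 genes, Prr33 (chr7:142506722-142507021, minus strand) and Mrpl23 (chr7:142532782-142533081, plus strand). The Mrpl23 window begins inside the first GENCODE exon of Mrpl23 (chr7:142532686-142532830), so the RefSeq and GENCODE starts of this gene differ. Capitals mark E-boxes (CANNTG, a pattern that matches at the same places on both strands), the site class of the myogenic and many other basic helix-loop-helix factors. The exons are those of Prr33 on GRCm38, on the minus strand and without marked bases. The first (chr7:142492928-142493135) lies in the Lsp1 intron and is used by both transcripts, and the second (chr7:142496875-142496971) is the exon outside both neighbours.
Prr33 promoter: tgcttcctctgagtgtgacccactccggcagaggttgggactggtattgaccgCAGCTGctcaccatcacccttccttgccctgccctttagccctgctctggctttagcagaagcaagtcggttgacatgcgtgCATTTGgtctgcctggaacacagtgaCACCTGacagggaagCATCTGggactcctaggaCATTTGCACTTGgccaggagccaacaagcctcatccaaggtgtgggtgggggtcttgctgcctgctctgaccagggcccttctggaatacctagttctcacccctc
Mrpl23 promoter: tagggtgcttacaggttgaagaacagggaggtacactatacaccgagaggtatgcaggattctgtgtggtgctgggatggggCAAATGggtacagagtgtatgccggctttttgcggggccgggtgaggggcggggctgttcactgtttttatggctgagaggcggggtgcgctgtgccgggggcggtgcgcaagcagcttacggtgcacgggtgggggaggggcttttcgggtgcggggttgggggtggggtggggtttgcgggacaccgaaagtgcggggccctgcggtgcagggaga
Prr33 exon in the Lsp1 intron: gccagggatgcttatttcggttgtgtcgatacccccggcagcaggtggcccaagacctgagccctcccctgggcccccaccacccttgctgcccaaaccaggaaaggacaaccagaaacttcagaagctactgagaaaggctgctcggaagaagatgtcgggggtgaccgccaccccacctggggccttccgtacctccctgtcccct
Prr33 exon outside both neighbours: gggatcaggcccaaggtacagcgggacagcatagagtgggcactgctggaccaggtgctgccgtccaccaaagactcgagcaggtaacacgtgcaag

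The promoter of Prr33 held 6 E-boxes and that of Mrpl23 held 1, where 72.3% of the 32851 RefSeq mouse promoters of this length hold at least 1. The form CAGCTG, which is contained in the E-box pattern, occurred once in the Prr33 promoter, and 16.3% of promoters hold it. The GC box GGGCGG, searched on both strands, occurred 2 times in the Mrpl23 promoter and not in that of Prr33, and is in 35.7% of promoters. TATAAA, searched on both strands, was in neither window and is in 13.6% of promoters. These matches are descriptions of the letters in the windows.

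Prr33 was low in all libraries gavaged with water. TMM-scaled levels were 6.84, 4.34 and 4.57 CPM in VAS+H2O, 3.69, 4.15 and 4.31 CPM in IMQ+H2O, and 25.6, 59.1 and 35.1 CPM in IMQ+XYF. Every IMQ+XYF library was above every other library, with replicate 2 highest. The counts behind these levels ran from 107 to 341 in the water-gavaged libraries and from 2057 to 2907 in IMQ+XYF. The fitted XYF change was 3.30 ± 0.33 (log2, SE), which is the contrast Prr33 was chosen on and is given with no test, as are the XYF changes of the other genes.

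Prr33 was not higher with imiquimod alone. The 3 IMQ+H2O libraries were all below the 3 VAS+H2O libraries, with a log2 change of -0.37 ± 0.31 (SE) and an adjusted p of 0.518 in edgeR's quasi-likelihood test. Of all tested genes, 16.5% had IMQ+H2O libraries all below VAS+H2O. None of the 5 genes was called at an adjusted p of 0.05 and a log2 change of 1 by edgeR, none had an unadjusted p under 0.05, and DESeq2 called 0. Of all tested genes, edgeR called 0.994%, DESeq2 called 4.23%, and 20.9% had an unadjusted p under 0.05.

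**Figure D2:**
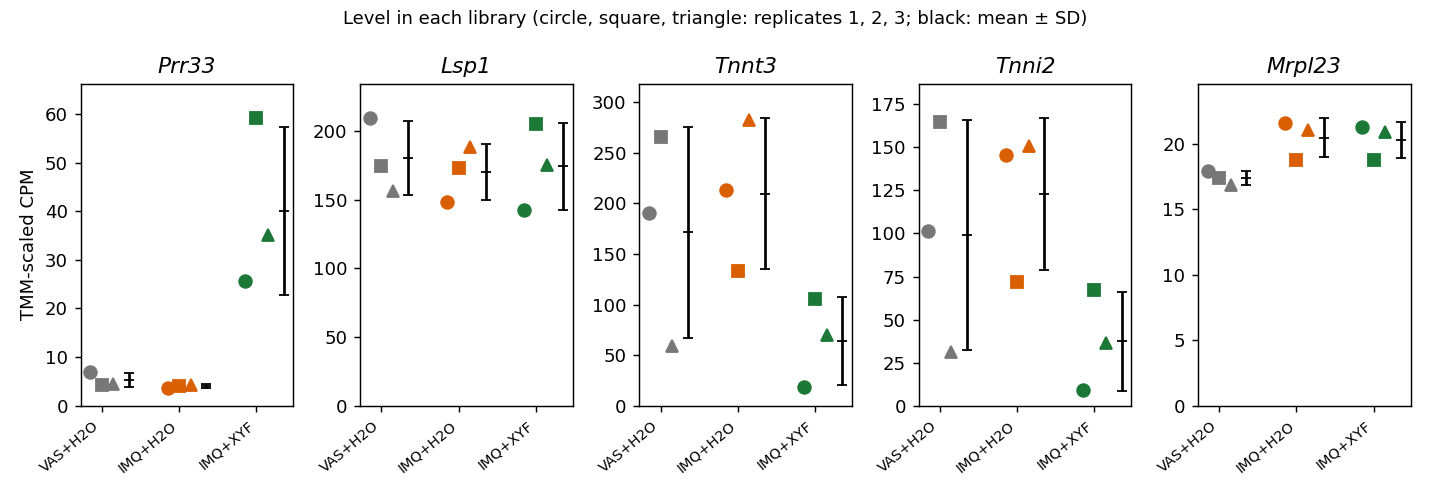
TMM-scaled CPM of each gene (vertical axes start at 0 and differ between genes) in the 3 libraries of each group, with mean ± SD in black. Prr33 is higher in each IMQ+XYF library than in any other, Lsp1 stays between 142 and 209 CPM, and Tnnt3 and Tnni2 are lower in IMQ+XYF than in IMQ+H2O.

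Tnnt3, the fast skeletal troponin T, went the other way from Prr33 in IMQ+XYF. It was at 190, 265 and 59.0 CPM in VAS+H2O, 213, 133 and 283 CPM in IMQ+H2O, and 18.2, 105 and 69.5 CPM in IMQ+XYF. Each IMQ+XYF library was below each IMQ+H2O library, but VAS+H2O replicate 3 lay among the IMQ+XYF libraries. The XYF change was -1.71 ± 0.68 (log2, SE), where 8.74% of all tested genes had IMQ+XYF libraries all below IMQ+H2O.

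The imiquimod change of Tnnt3 was 0.29 ± 0.66 (log2, SE), with an adjusted p of 0.831 by edgeR, and it was -0.12 without VAS+H2O replicate 3. IMQ+XYF against VAS+H2O, which shares libraries with the other comparisons, gave -1.42 ± 0.67 and an adjusted p of 0.305 by edgeR. Its 95% interval ran from -2.94 to 0.11, so a fall of the size seen against IMQ+H2O was within it.

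Tnni2, the troponin I of the same fibres, had the pattern of Tnnt3. Its levels were 101, 165 and 31.3 CPM in VAS+H2O, 146, 72.1 and 151 CPM in IMQ+H2O, and 9.28, 66.9 and 36.1 CPM in IMQ+XYF. As for Tnnt3, IMQ+XYF and IMQ+H2O did not overlap and VAS+H2O replicate 3 was low. The imiquimod change was 0.31 ± 0.72 (log2, SE, edgeR adjusted p = 0.835) and reversed to -0.12 without VAS+H2O replicate 3. The XYF change was -1.72 ± 0.74, and IMQ+XYF against VAS+H2O gave -1.40 ± 0.73 (edgeR adjusted p = 0.353). Tnni2 held between 51.0 and 68.4 counts per 100 counts of Tnnt3 in all 9 libraries.

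The other muscle genes were low where the troponins were low. All 34 genes of a skeletal muscle fibre list had a negative XYF change, with a median of -1.65 (log2) against 0.01 over all tested genes, and 19 had IMQ+XYF libraries all below IMQ+H2O, as 8.74% of all tested genes did. Examples were Myh1, a fast myosin heavy chain, at -2.24 ± 0.82 (SE), Atp2a1, the calcium pump of fast fibres, at -2.08 ± 0.76, and Mb, the oxygen-binding myoglobin, at -1.68 ± 0.81. The summed list took 3425, 5644 and 1144 CPM in VAS+H2O, 5090.0, 2517 and 5205 CPM in IMQ+H2O, and 298, 2154 and 1245 CPM in IMQ+XYF. The lowest sums were in IMQ+XYF replicate 1 and VAS+H2O replicate 3 among their groups, the libraries lowest in Tnnt3 and Tnni2. Without IMQ+XYF replicate 1, a choice made after seeing the values, the list's median was -1.18. In bulk libraries, fewer muscle fibres and less RNA per fibre cannot be told apart.

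Of 9 further troponin and tropomyosin genes, 8 had a negative XYF change, with a median of -0.84 (log2). Tnnc2, the calcium-binding troponin C of fast fibres, was at -1.68 ± 0.75 (SE), and Tnnt1, the slow skeletal troponin T, at -1.27 ± 0.77. Tpm3, a tropomyosin that cells other than muscle also make, was at 0.00 ± 0.14, and Tnni3, the cardiac troponin I, was the exception in sign at 0.45 ± 0.39. Under imiquimod, edgeR called 0 of the 34 and 0 of the 9, DESeq2 called 0 and 0, and 0 and 1 genes had an unadjusted p under 0.05. The shares over all tested genes were 0.994% for edgeR, 4.23% for DESeq2 and 20.9% for an unadjusted p under 0.05. The median imiquimod changes were 0.24 and 0.26. With the muscle score as a covariate, the XYF change of Tnnt3 was 0.15 and that of Prr33 was 3.81. The muscle list sums did not overlap between IMQ+XYF (298 to 2154 CPM) and IMQ+H2O (2517 to 5205 CPM). Muscle content and XYF therefore cannot be told apart in this fit.

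Lsp1, the leukocyte gene whose intron holds most of Prr33's exon bases, was level in the 3 groups. It was at 209, 175 and 157 CPM in VAS+H2O, 149, 173 and 189 CPM in IMQ+H2O, and 142, 205 and 175 CPM in IMQ+XYF. The groups overlapped throughout. The imiquimod change was -0.08 ± 0.17 (log2, SE, edgeR adjusted p = 0.805), with a 95% interval from -0.46 to 0.29. IMQ+XYF against VAS+H2O gave -0.05 ± 0.17 (edgeR adjusted p = 0.916), with an interval from -0.42 to 0.33. The XYF change was 0.03 ± 0.17. Both small negative changes turned positive, to at most 0.076, when single libraries were left out.

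The leukocyte lists had unlike median changes under imiquimod, and none was tested against Lsp1. All 24 genes of a pan-leukocyte list had a positive imiquimod change, with a median of 0.75 (log2) against -0.02 over all tested genes, and edgeR called 6 of them, against 0.646% of all tested genes called higher. DESeq2 called 9 higher, against 2.49% of all tested genes. The called genes included Fcer1g, the shared Fc receptor gamma chain, which rose by 1.22 ± 0.19 (SE, edgeR adjusted p = 0.0292). The list's sum was 484, 683 and 490.2 CPM in VAS+H2O and 678, 1155 and 1141 CPM in IMQ+H2O. Of 11 tested neutrophil genes, 6 were called higher, among them S100a9, a calcium-binding protein of neutrophils, at 5.20 ± 0.76 (edgeR adjusted p = 0.0247). Among 12 monocyte and macrophage genes, 10 had a positive and 2 a negative imiquimod change, with a median of 0.61. From these 12, edgeR called 1, DESeq2 called 3 and 7 had an unadjusted p under 0.05, against 0.994%, 4.23% and 20.9% of all tested genes. Of 10 endothelial genes, a second source of Lsp1, all had a positive imiquimod change with a median of 0.70, of which edgeR called 0, DESeq2 called 1 and 5 had an unadjusted p under 0.05, as 20.9% of all tested genes did. Of 10 tested lymphocyte genes, 3 had a positive and 7 a negative imiquimod change, with a median of -0.32. edgeR and DESeq2 called 0 of these and 2 had an unadjusted p under 0.05, against 0.994%, 4.23% and 20.9% of all tested genes. Cd28, a T cell costimulatory receptor, was at -1.51 ± 0.61 (edgeR adjusted p = 0.205). Its IMQ+H2O libraries were all below VAS+H2O, as for 16.5% of all tested genes. Trdc, another gene of this list, went the other way at 1.79 ± 0.74 (edgeR adjusted p = 0.217), with groups that overlapped. In the XYF contrast the pan-leukocyte median was -0.34, and the sum in IMQ+XYF was 873, 692 and 905 CPM. With the score of the pan-leukocyte list as a covariate, the XYF change of Prr33 was 3.11.

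Other cell type lists gave the following values for the IMQ+XYF libraries, and their part in the level of Prr33 was not tested. All 14 keratinocyte genes had a positive XYF change, with a median of 1.43 (log2), which was 0.66 without IMQ+XYF replicate 1. Their sum was 5173, 7329 and 4215 CPM in VAS+H2O, 2976, 4494 and 3410 CPM in IMQ+H2O, and 17610, 4877 and 8265 CPM in IMQ+XYF. Replicate 1 was highest for keratinocyte genes and lowest for Prr33 among the IMQ+XYF libraries. All 10 endothelial genes had a negative XYF change, with a median of -0.66, and Pecam1, an adhesion molecule of endothelium, was at -0.62 ± 0.31 (SE). The monocyte and macrophage, lymphocyte, neutrophil and dermal fibroblast medians were -0.57, 0.31, -0.55 and -0.08.

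Mrpl23 had the narrowest range of the 5 genes relative to its level. It was at 17.9, 17.4 and 16.8 CPM in VAS+H2O, 21.6, 18.8 and 21.0 CPM in IMQ+H2O, and 21.3, 18.7 and 20.9 CPM in IMQ+XYF. Both imiquimod groups were above every VAS+H2O library, as 15.1% of all tested genes were in IMQ+H2O and 11.7% in IMQ+XYF. The imiquimod change was 0.24 ± 0.11 (log2, SE, edgeR adjusted p = 0.245), IMQ+XYF against VAS+H2O gave 0.23 ± 0.11 (edgeR adjusted p = 0.301), and the XYF change was -0.01 ± 0.11. Of 77 other mitochondrial ribosome genes, 74 had a positive imiquimod change, with a median of 0.26. In 52 of them IMQ+H2O was above every VAS+H2O library, and 37 had an unadjusted p under 0.05, against 20.9% of all tested genes. Of the 77, edgeR called 1, against 0.994% of all tested genes, which was Mrps23 at 1.06 ± 0.15 (edgeR adjusted p = 0.0240), and it was named after its values were seen. Mrpl23 shares sequence with the pseudogene Mrpl23-ps1, also named after its values were seen, which held between 36.3 and 42.1 counts per 100 counts of Mrpl23 in all libraries, so its level is uncertain to the extent that reads were split between them.

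Against VAS+H2O, IMQ+XYF gave 0 calls among the 4 genes other than Prr33 by edgeR, 0 by DESeq2 and 0 with an unadjusted p under 0.05, where 1.20% of all tested genes were called by edgeR, 3.17% by DESeq2 and 18.3% had an unadjusted p under 0.05.

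Levels per kb of exon divide CPM by the merged exons of all annotated transcripts of a gene. That length was 2348 bases for Prr33, 4883 for Mrpl23 and 5174 for Lsp1. Which of these transcripts the dermis makes was not measured, so the order of genes below also depends on the annotation. In VAS+H2O, Prr33 was at 2.24 ± 0.589 CPM per kb (SD, n = 3), Mrpl23 at 3.55 ± 0.113, Lsp1 at 34.8 ± 5.18, Tnni2 at 66.2 ± 44.5 and Tnnt3 at 108 ± 66.0. In IMQ+H2O, Prr33 was at 1.72 ± 0.138 CPM per kb (SD, n = 3), below Mrpl23 at 4.19 ± 0.305, Lsp1 at 32.9 ± 3.90, Tnni2 at 82.1 ± 29.4 and Tnnt3 at 132 ± 47.1. The spreads of Tnni2 and Tnnt3 overlapped. In IMQ+XYF, Prr33 was at 17.0 ± 7.36 CPM per kb and Mrpl23 at 4.15 ± 0.282. Lsp1 at 33.7 ± 6.06, Tnni2 at 25.0 ± 19.3 and Tnnt3 at 40.6 ± 27.6 overlapped there. The range of Prr33 in IMQ+XYF stayed below that of Lsp1 and overlapped those of Tnni2 and Tnnt3.

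The ratio of counts within a library does not depend on scaling. Prr33 held 3.27, 2.48 and 2.92 counts per 100 counts of Lsp1 in VAS+H2O and 2.48, 2.40 and 2.29 in IMQ+H2O, a coefficient of variation of 14.2% over 6 libraries. In IMQ+XYF it held 18.0, 28.8 and 20.1. Per 100 counts of Tnnt3, Prr33 held 3.60, 1.63 and 7.74 counts in VAS+H2O, 1.73, 3.11 and 1.53 in IMQ+H2O, and 141, 56.2 and 50.6 in IMQ+XYF. The coefficient of variation over the 6 water-gavaged libraries was 73.7% for this ratio, 79.2% for Prr33 to Tnni2 and 29.4% for Prr33 to Mrpl23. Prr33 was a steadier share of Lsp1 counts than of the muscle genes in water-gavaged libraries, and left both shares in IMQ+XYF. These ratios also carry the spread of the second gene. In VAS+H2O and IMQ+H2O the CPM of Lsp1 had a coefficient of variation of 14.9% and 11.9%, and that of Tnnt3 60.9% and 35.6%. The steadier ratio therefore does not show that Prr33 moved with Lsp1.

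**Figure D3:**
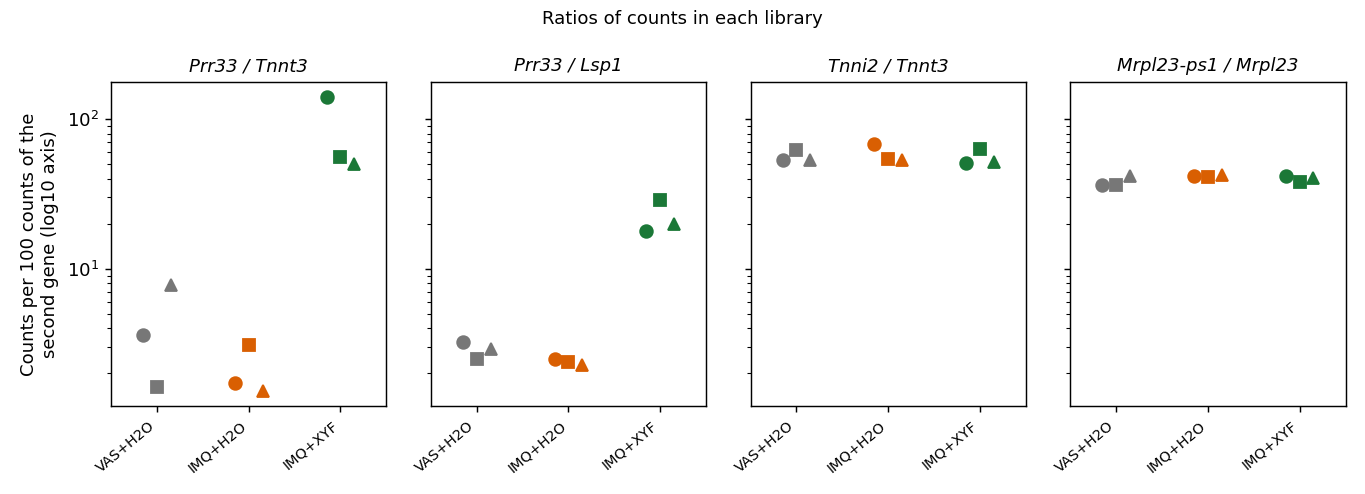
Counts of the first gene per 100 counts of the second in each library (log10 axis, with circle, square and triangle for replicates 1, 2 and 3). The ratio of Prr33 to Lsp1 is between 2.29 and 3.27 in the 6 water-gavaged libraries and between 18.0 and 28.8 in IMQ+XYF, while the ratios of Tnni2 to Tnnt3 and of Mrpl23-ps1 to Mrpl23 stay level.

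Across the 6 water-gavaged libraries, log2 CPM of Prr33 and Lsp1 gave a Pearson r of 0.793 (exact permutation p = 0.0569, adjusted over 4 relations 0.228) and a Spearman rho of 0.600 (exact permutation p = 0.242, adjusted 0.483). Without the libraries farthest from the median of Lsp1, VAS+H2O replicate 1 and IMQ+H2O replicate 1, r was -0.635, so the relation rests on them. For Tnnt3, r was -0.053 (exact permutation p = 0.919, adjusted 0.919) and rho -0.257 (exact permutation p = 0.658, adjusted 0.714), with r at -0.550 without the farthest libraries. Within IMQ+XYF, the order from high to low was replicate 2, 3, 1 for Prr33, Lsp1, Tnnt3 and Tnni2 alike. Within IMQ+H2O it was replicate 3, 2, 1 for Prr33 and Lsp1, and 3, 1, 2 for Tnnt3 and Tnni2. Within VAS+H2O it was 1, 3, 2 for Prr33, 1, 2, 3 for Lsp1 and 2, 1, 3 for Tnnt3 and Tnni2. Deviations from the group means over all 9 libraries gave an r with Prr33 of 0.895 for Lsp1, 0.626 for Tnnt3, 0.610 for Tnni2 and -0.470 for Mrpl23, given as descriptions with no p.

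**Figure D4:**
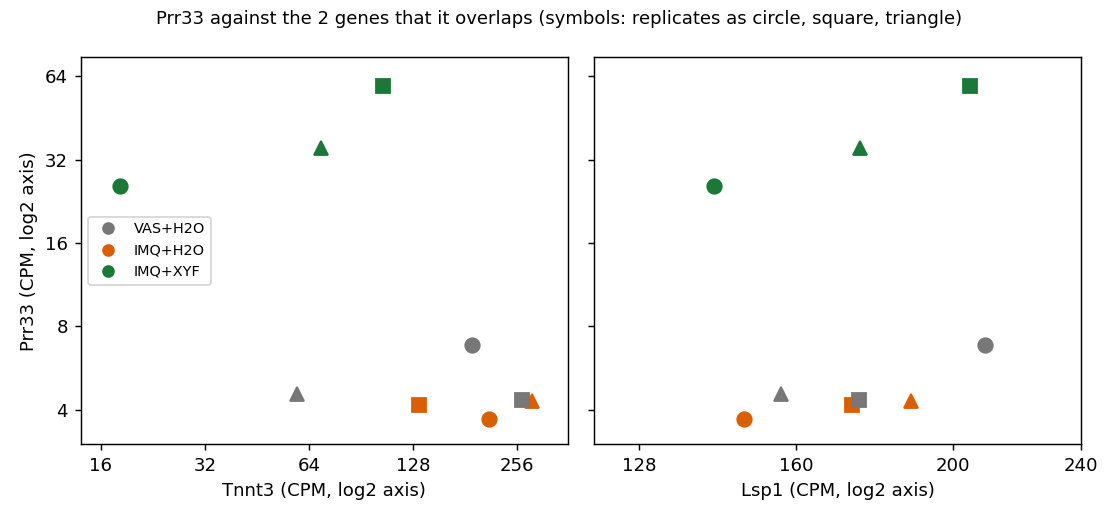
Prr33 against Tnnt3 (left) and Lsp1 (right) in each library, in CPM on log2 axes, with colours for groups and circle, square and triangle for replicates 1, 2 and 3. The 3 IMQ+XYF libraries lie above the others at Lsp1 levels that the other groups share, and toward lower Tnnt3.

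The count table held 28 genes within 250 kb of Prr33, of which 13 were tested and 4 had no count. In the XYF contrast 6 of the 13 had a positive and 7 a negative change. Ifitm10, a gene of the interferon-induced transmembrane family, was at 25.5, 14.4 and 13.3 CPM in VAS+H2O, 9.89, 10.2 and 12.4 CPM in IMQ+H2O, and 16.5, 33.6 and 16.4 CPM in IMQ+XYF. Its IMQ+XYF libraries were all above IMQ+H2O, as for 9.22% of all tested genes, but overlapped VAS+H2O, and its XYF change was 1.03 ± 0.34 (log2, SE). Syt8, a synaptotagmin, was at 0.71 ± 0.36. Nctc1, a non-coding gene between Mrpl23 and H19, was at -1.75 ± 0.78, close to Tnnt3 and Tnni2. Ctsd, the lysosomal protease cathepsin D, was at 0.09 ± 0.11, H19, an imprinted non-coding RNA, at -0.37 ± 0.28, and Igf2, the imprinted growth factor beside it, at 0.08 ± 0.31. Gm33148 and Igf2os were the other tested genes. Under imiquimod, edgeR called 0 of the 13 genes, DESeq2 called 0 and 0 had an unadjusted p under 0.05. Over all tested genes these shares were 0.994%, 4.23% and 20.9%. Against VAS+H2O, edgeR and DESeq2 called 0 of the 12 genes other than Prr33, and 1 had an unadjusted p under 0.05. That gene was Syt8 at 0.95 ± 0.36 (edgeR adjusted p = 0.206). In this comparison edgeR called 1.20% of all tested genes, DESeq2 called 3.17%, and 18.3% had an unadjusted p under 0.05.

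**Figure D5:**
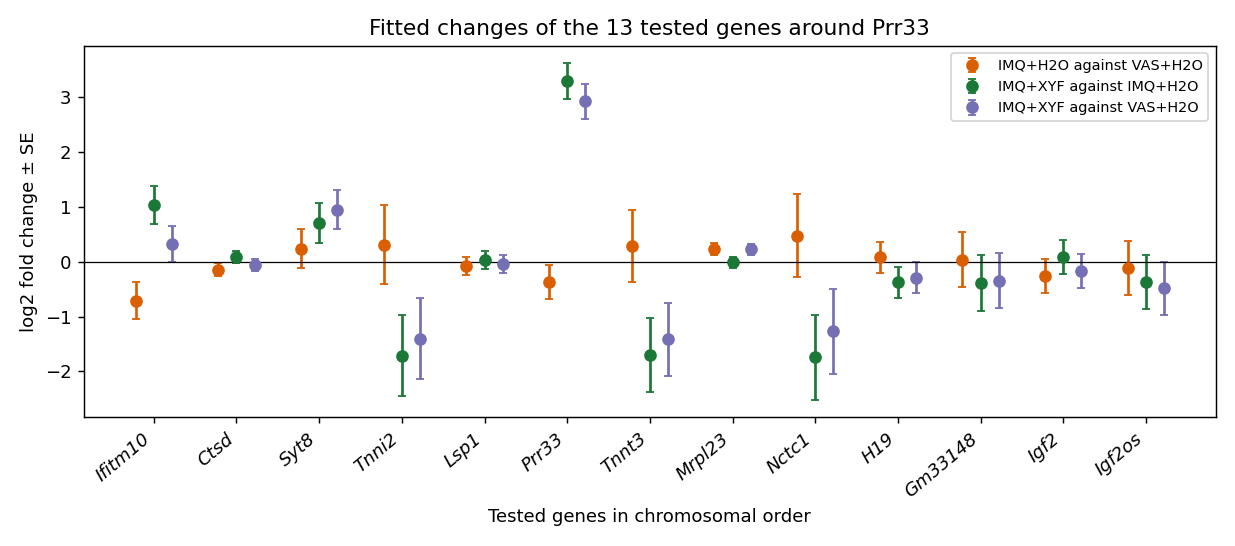
Fitted log2 fold changes ± SE of the 13 tested genes within 250 kb of Prr33, in chromosomal order, for the 3 comparisons. Prr33 lies at 3.30 for IMQ+XYF against IMQ+H2O between Lsp1 at 0.03 and Tnnt3 at -1.71.

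By the rule for likeness, the genes most correlated with Prr33 over the 9 libraries in log2 CPM were Lzic (r = 0.949), Diexf (0.943), Snrnp200 (0.932), Gpd2 (0.931), Ascc2 (0.930), Dbi (0.925), Nvl (0.925), U2surp (0.922), Pphln1 (0.921) and Alkbh2 (0.918). These correlations follow mainly the step between IMQ+XYF and the other libraries, and no p is given. Their XYF folds were between 1.09 and 1.63, against 9.84 for Prr33, and without the IMQ+XYF libraries their r ranged from -0.37 to 0.89. Among the 22429 other tested genes, Mrpl23 ranked 6917 (r = 0.24), Lsp1 8047 (0.18), Tnni2 20115 (-0.55) and Tnnt3 20366 (-0.57) in likeness to Prr33. Syt8 ranked 402 (0.72) and Ifitm10 446 (0.71). Over the 6 water-gavaged libraries the r of Ifitm10 with Prr33 was 0.966. Among these libraries VAS+H2O replicate 1 was highest for both genes, at 25.5 CPM for Ifitm10 and 6.84 CPM for Prr33. How far the r rests on that library was not tested.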

How the data were processed

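RNA from 9 mouse ear dermis libraries was sequenced, and the authors deposited whole-number read counts per Ensembl gene, without normalization. Per the labels and the study's methods, reads were aligned to GRCm38 with STAR 2.5. The counting tool, its use of strand and its treatment of multiply aligned reads are not given in the sources used here. Counts were tested with edgeR 4.0.16 in R 4.3.3, with filterByExpr, TMM factors and 1 quasi-likelihood fit over 9 libraries. The study used DESeq2, which was an alternative here (1.42.0). SE is the absolute log2 change divided by the root of F. Calls needed an adjusted p of 0.05 (Benjamini-Hochberg) and an absolute log2 change of 1. CPM per kb used merged GENCODE vM21 exons, which matched 52403 of 52550 identifiers and may differ from the earlier Ensembl release of GRCm38 named in the study's methods. Floors cover counting error only. The fit was tested on simulated data, and the results of that test are not given here.

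The genes and lists were chosen with earlier results of these data known. Genes named were the 5 genes, those within 250 kb, the 10 most correlated with Prr33 (mean of at least 100 scaled counts, prior count 2, no Gm or Rik symbols), the troponins and tropomyosins, and up to 4 of the highest genes per other list. Alternatives were DESeq2, RLE scaling, no filter, the compared groups alone, a replicate block, each library left out, and list scores as covariates.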

Additional observations from a re-analysis of the deposited data

How the results depend on the processing

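Over 16 alternatives the XYF change of Prr33, whose sign the choice of the gene fixed, ran from 2.93 to 3.81, and with single libraries left out from 2.93 to 3.54. With the muscle score as covariate the XYF changes were 3.81 for Prr33, 0.15 for Tnnt3 and 0.35 for Lsp1, and against VAS+H2O 0.22 for Tnnt3, 0.36 for Tnni2 and 0.21 for Lsp1. With libraries left out, the XYF change ran from -2.23 to -1.26 for Tnnt3 and from -0.07 to 0.16 for Lsp1. The muscle list sums did not overlap between IMQ+XYF and IMQ+H2O, so the fit with the muscle score cannot separate muscle content from XYF. With the pan-leukocyte score, the imiquimod change of Prr33 was 0.043 and its XYF change 3.11. Without VAS+H2O replicate 3 the imiquimod change was -0.12 for Tnnt3 and -0.12 for Tnni2, the low ends of ranges up to 0.75 and 0.89. For Lsp1 it was 0.034 without VAS+H2O replicate 1 and 0.0050 without IMQ+H2O replicate 1, and against VAS+H2O 0.072 without VAS+H2O replicate 1 and 0.076 without IMQ+XYF replicate 1, the high ends of ranges from -0.18 and -0.14. The cause was not tested.

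Calls over all genes by imiquimod, by XYF and in IMQ+XYF against VAS+H2O were 223, 2 and 270. They were 948, 211 and 710 with DESeq2, and 496, 1 and 33 with the compared groups alone. With libraries left out they ran from 25 to 455, from 0 to 4 and from 12 to 592. The replicate block gave 86, 0 and 54, where the 0 left 2212 genes at an unadjusted p under 0.05. Same-numbered libraries deviated together with r from -0.183 to 0.125, and 1 of 9 pairs was over 0.1. Whether these libraries share more than a number was not tested.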
